A study of Mus musculus with 22 samples.

Results

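Transcripts of 8 amino acid transporters were followed by RNA sequencing across 22 libraries of mouse CD8+ T cells: Slc3a2, Slc7a5, Slc7a6, Slc7a11, Slc7a1, Slc1a5, Slc38a1 and Slc38a2. The 8 genes were taken by symbol from a table of 46252 symbols, and all 8 were among the 14327 genes kept for testing, those that reached a scaled count of 10 in 2 or more libraries. A scaled count is a read count divided by the size factor of its library. Of the 8, 6 reached a scaled count of 10 in all 22 libraries, Slc7a5 did so in 19 and Slc7a11 in 6.

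The cells were P14 T cells, which carry a transgenic receptor for a peptide of lymphocytic choriomeningitis virus, and the labels give the C57BL/6 strain and an age of 6 to 12 weeks. The cells were either WT (wild type) or lacked VHL (VHL-deficient), the subunit of a ubiquitin ligase that recognises hydroxylated HIF alpha proteins, and each replicate pooled 5 mice. For each genotype there were day 7 spleen cells, unsplit day 7 tumor cells, day 7 tumor cells sorted as Trm or as nonTrm, and day 11 tumor cells. Both day 11 groups held 3 libraries and the other 8 groups held 2. The sources used here do not give the tumor, the markers of the Trm sort, the start of the day count or the means by which VHL was removed. All groups share the P14 receptor, so every library came from T cells of 1 antigen specificity.

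Activated T cells depend on imported amino acids for protein synthesis, for signalling through the mTORC1 kinase complex and for redox balance. Slc3a2 encodes the CD98 heavy chain, a glycoprotein that brings several SLC7 light chains to the cell surface. Slc7a5 (LAT1) is the light chain that exchanges large neutral amino acids such as leucine, Slc7a6 (y+LAT2) exchanges cationic for neutral amino acids, and Slc7a11 (xCT) takes up cystine in exchange for glutamate. Slc7a1 (CAT-1) carries arginine and lysine without a heavy chain. Slc1a5 (ASCT2) exchanges small neutral amino acids including glutamine, and Slc38a1 (SNAT1) and Slc38a2 (SNAT2) take up glutamine and other small neutral amino acids together with sodium. MYC, ATF4 and NRF2 are known regulators of several of these genes.

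In mm10 (GENCODE M21), Slc3a2 lies on chromosome 19 from 8706882 to 8723369 on the minus strand and Slc7a1 on chromosome 5 from 148327410 to 148399904 on the minus strand. Slc7a5 lies on chromosome 8 from 121881150 to 121907694 (minus strand) and Slc7a6 on the same chromosome from 106168857 to 106198706 (plus strand). Slc7a11 spans chromosome 3 from 49892526 to 50443614 (minus strand) and Slc1a5 spans chromosome 7 from 16781340 to 16798274 (plus strand). Slc38a1 (96571418 to 96642913) and Slc38a2 (96687392 to 96699730) are neighbours on the minus strand of chromosome 15, with 44478 bases between them. Other gene models overlap the spans of Slc7a5 (1 model) and Slc7a11 (5 models), and in this annotation no exon of another gene overlaps an exon of a member. Whether the deposited counts were made with the same annotation was not checked.

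The promoters of Slc3a2, Slc7a1 and Slc38a2 are shown because these genes were called higher in tumor than in spleen in at least 1 genotype (sequences from RefSeq, GRCm38.p6, the assembly that mm10 is built on, 250 bases before to 50 bases after a start site, all on the minus strand, 5′ to 3′). RefSeq windows were found for 5 of the 8 members (7 windows), and the reference used here held none for Slc7a5, Slc1a5 and Slc38a1. Capitals mark matches to 4 short motifs searched on both strands: the hypoxia response core ACGTG, the E-box CACGTG (which contains the former), the amino acid response core TGATGNAA and the antioxidant response core TGACNNNGC.
Slc3a2, chr19:8713848-8714147: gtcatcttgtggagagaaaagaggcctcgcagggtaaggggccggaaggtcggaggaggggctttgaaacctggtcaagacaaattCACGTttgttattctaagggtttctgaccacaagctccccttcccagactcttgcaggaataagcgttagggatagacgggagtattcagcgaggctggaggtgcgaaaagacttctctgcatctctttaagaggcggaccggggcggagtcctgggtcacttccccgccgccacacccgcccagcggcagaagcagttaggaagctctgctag
Slc7a1, chr5:148399855-148400154: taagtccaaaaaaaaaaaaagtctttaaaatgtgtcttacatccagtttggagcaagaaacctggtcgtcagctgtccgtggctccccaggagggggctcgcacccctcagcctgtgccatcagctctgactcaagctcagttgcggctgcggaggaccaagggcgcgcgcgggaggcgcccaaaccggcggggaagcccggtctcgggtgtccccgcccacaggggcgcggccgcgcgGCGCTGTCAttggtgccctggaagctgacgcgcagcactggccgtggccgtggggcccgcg
Slc38a2, chr15:96699679-96699978: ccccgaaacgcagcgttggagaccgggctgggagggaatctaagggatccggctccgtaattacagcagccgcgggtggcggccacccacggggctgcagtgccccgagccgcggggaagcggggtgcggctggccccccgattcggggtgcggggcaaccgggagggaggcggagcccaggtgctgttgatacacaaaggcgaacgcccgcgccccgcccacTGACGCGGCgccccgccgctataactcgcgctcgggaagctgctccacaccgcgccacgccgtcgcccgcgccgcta
The Slc3a2 window lies inside the GENCODE span, at an internal start site. It holds 1 hypoxia core on the opposite strand, beginning 164 bases before the start site. The Slc7a1 window holds 1 antioxidant core on the opposite strand 11 bases before the start, and the Slc38a2 window holds 1 on the same strand 27 bases before. Of 32851 RefSeq windows of this length, 19.62% held the hypoxia core, 7.15% the E-box, 3.97% the amino acid response core and 12.39% the antioxidant core. Among the windows not printed, that of Slc7a11 (chromosome 3, 50443564 to 50443863) held 2 amino acid response cores, TGATGCAA at 66 and TTGCATCA at 47 bases before the start. A second Slc7a1 window held none of the 4 motifs. The 2 overlapping Slc7a6 windows on chromosome 8 (106168604 to 106168903 and 106168671 to 106168970) held 2 and 1 hypoxia cores, and each held 1 antioxidant core, which overlaps a hypoxia core. The matches describe the sequence only.

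Libraries held 3375558 to 10211060 reads, of which 26.9% to 45.7% fell on 1 ribosomal RNA locus. Vhl had 0 to 32 reads in VHL-deficient and 60 to 280 in WT libraries, and it fell in VHL-deficient cells in all 5 settings (limma, adjusted p from 0.000252 to 0.0361). All 9 CD8 T cell markers had reads in every library, and their summed scaled count was 27143 to 79781. Summed markers of macrophages and monocytes reached at most 159, of melanoma 98.3, of dendritic cells 1246 and of B cells 1222. The B cell sum was mostly Ighm, while Ms4a1 was at 0 reads in 15 libraries. The highest dendritic cell sum was mostly Itgax (1202.8). In WT day 11 replicate 2 the 6 neutrophil markers summed to 736. VHL-deficient nonTrm replicate 2 stood apart, with the highest ribosomal share (45.7%), 1 read worth 2.73 scaled counts and the highest Malat1 (34358), so results that rest on it are given with and without it. VHL-deficient spleen replicate 1 was also shallow (3375558 reads, 42.3% ribosomal, 2.23 scaled counts per read). So was WT unsplit tumor replicate 2 (3644936 reads, 32.2% ribosomal, 2.35 scaled counts per read). Both enter the tumor against spleen comparison. Genotype, subset and tissue were compared within 1 plate column, whereas day 11 and day 7 lay in different columns.

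Per kb of merged exon, Slc3a2 was the most abundant member, with a median over the 22 libraries of 809.8 scaled counts per kb. The length was that of all annotated exons of a gene, and isoform use was not checked. Slc1a5 followed at 349.8. Both SNAT genes lay lower, Slc38a2 at 68.23 and Slc38a1 at 58.04, close to Slc7a6 at 37.92 and Slc7a1 at 32.84. Slc7a5 had 7.629 scaled counts per kb and Slc7a11 had 0.5725. On the scaled count, without length, Slc3a2, Slc1a5, Slc38a1 and Slc38a2 had means above those of 98.51%, 97.15%, 94.82% and 92.16% of the tested genes. There the order of the SNAT genes was the reverse, with medians of 1000 for Slc38a1 and 603 for Slc38a2. Slc7a5 rested on 3 to 61 reads per library and Slc7a11 on 1 to 29 reads, so their values carry wide counting error. The plot of scaled counts by library shows all 8 genes.

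**Figure D1:**
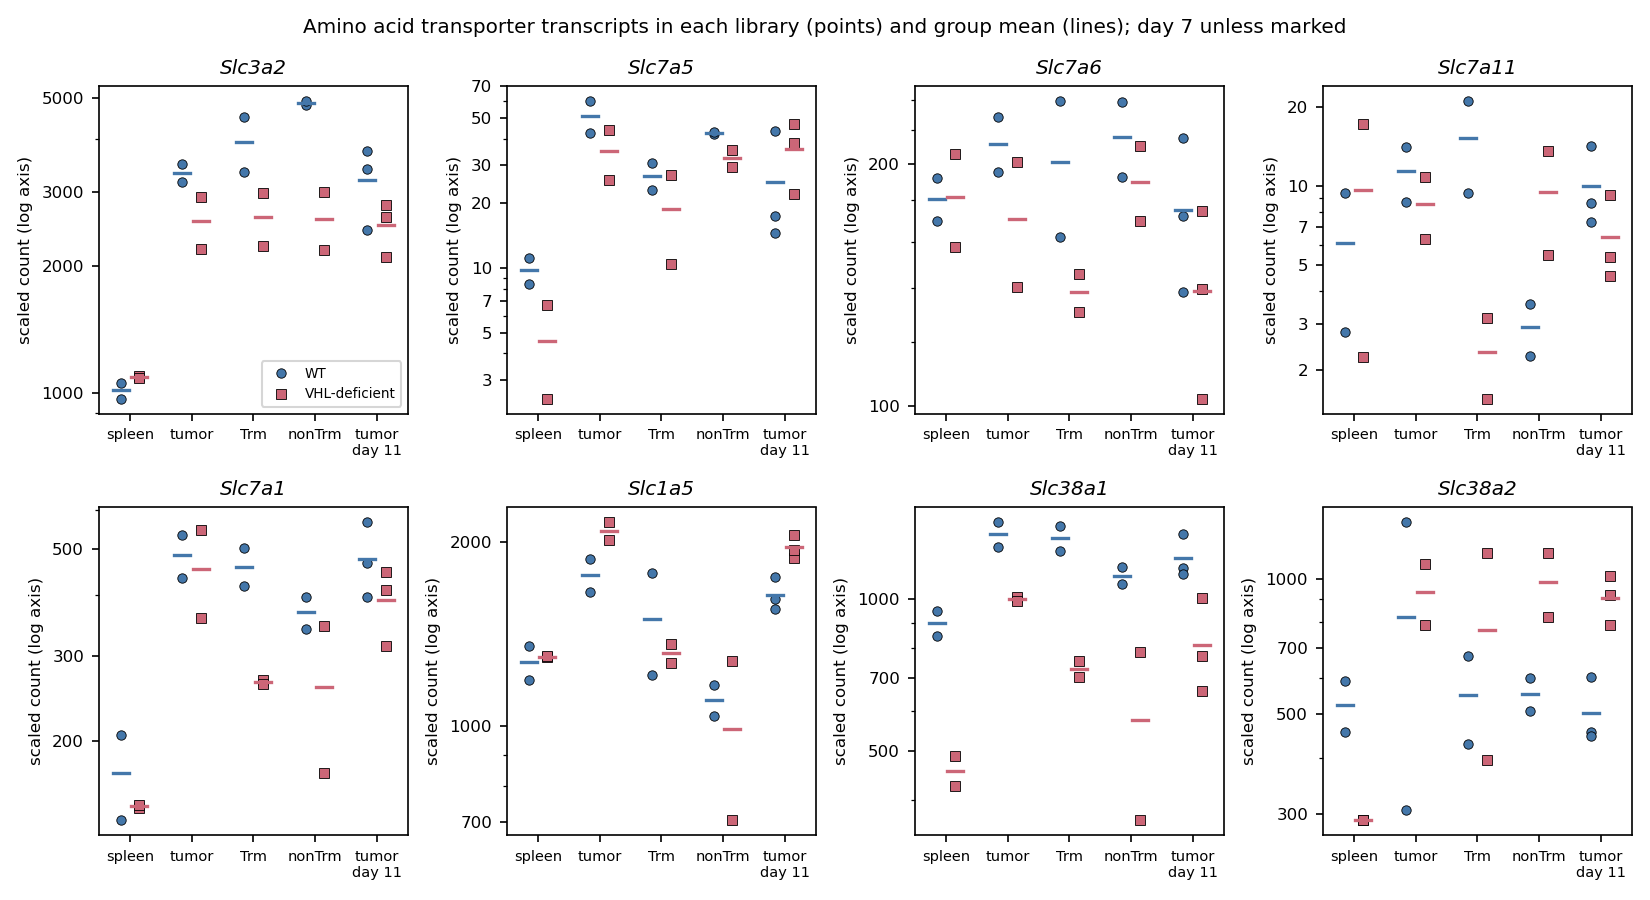
Scaled counts of the 8 transporters (vertical log axes) in every library by setting, as circles for WT and squares for VHL-deficient cells, with group means as lines. Slc3a2 lies near 1000 scaled counts in all 4 spleen libraries (971 to 1099.6) and higher in the 18 tumor libraries (2104 to 4932), and the VHL-deficient points for Slc38a1 lie below the WT points in each of the 5 settings. Sorted and day 11 tumor libraries lay in other plate columns than spleen.

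The first comparison, unsplit day 7 tumor cells against day 7 spleen cells, asks how carrier transcripts differ between cells from the tumor and from the spleen. In WT cells, 3 of the 8 genes rose in tumor, Slc3a2, Slc7a1 and Slc7a5, against a background of 21.5% of all tested genes called in either direction and 13.2% called higher. In VHL-deficient cells, 5 rose, the same 3 with Slc38a1 and Slc38a2, against 15.4% called and 9.98% called higher. No member fell. On simulated data, the WT comparison of tumor against spleen made more false calls than the threshold of 0.05 allows. The WT calls, for members and background alike, may therefore include more false ones than that threshold implies. In each genotype, tumor and spleen libraries did not overlap for 6 of the 8, where they did not for 60% of all tested genes in WT and 62.8% in VHL-deficient cells. The median log2 fold change of the 8 was 0.77 in WT and 1.17 in VHL-deficient cells, beside 0.08 and 0.06 over all tested genes. In bulk RNA, fewer cells that express a gene cannot be told apart from less RNA per cell.

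The CD98 heavy chain Slc3a2 had 1060.4 and 971 scaled counts in the WT spleen libraries and 3496 and 3172 in the WT tumor libraries. In VHL-deficient cells it had 1099.6 and 1087 in spleen and 2918 and 2198 in tumor. Tumor and spleen libraries did not overlap in either genotype. The log2 fold change was 1.71 ± 0.27 (SE) in WT (3.28-fold, adjusted p = 0.000117) and 1.21 ± 0.27 in VHL-deficient cells (2.32-fold, adjusted p = 0.00367). Without VHL-deficient unsplit tumor replicate 1 the second value was 1.01 with adjusted p = 0.081.

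Its leucine-carrying partner Slc7a5 had 11.1 and 8.38 scaled counts in WT spleen (8 reads in each library) and 60.0 and 42.3 in WT tumor (55 and 18 reads). In VHL-deficient cells it had 6.70 and 2.46 in spleen (3 reads in each library) and 25.7 and 44.1 in tumor (19 and 56 reads). Every tumor library was above every spleen library. Slc7a5 rose by 2.27 ± 0.59 on the log2 scale in WT (adjusted p = 0.00969) and by 2.75 ± 0.59 in VHL-deficient cells (adjusted p = 0.00304). From summed reads the ratio of tumor to spleen was 5.69 in WT (exact 95% counting interval 3.28 to 10.5) and 10.4 in VHL-deficient cells (4.55 to 29.2), intervals that cover counting error only. The WT call for Slc7a5 was lost without WT spleen replicate 2 (adjusted p = 0.0724), without WT unsplit tumor replicate 1 (0.0608) and in a fit of the groups compared alone (0.0663), and the VHL-deficient call without VHL-deficient spleen replicate 2 (0.0502), with 0.05, at the threshold, without VHL-deficient unsplit tumor replicate 2. With voom on the recovered reads, Slc7a5 had adjusted p = 0.0185 in WT and 0.0144 in VHL-deficient cells.

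The other light chains did not pass the test in either genotype. Slc7a6, the carrier that moves cationic out and neutral amino acids in, had 192 and 169.7 scaled counts in WT spleen and 195 and 228 in WT tumor (log2 fold change 0.22, adjusted p = 0.654, 95% CI -0.43 to 0.88). In VHL-deficient cells Slc7a6 had 206 and 158 in spleen and 141 and 201 in tumor (-0.10, adjusted p = 0.875, 95% CI -0.75 to 0.56). Spleen and tumor libraries overlapped in VHL-deficient cells and lay next to each other in WT cells. Slc7a11 spanned 2.23 to 17.2 scaled counts in the 4 spleen libraries and 6.3 to 14.1 in the 4 tumor libraries, which overlapped (adjusted p = 0.432 in WT and 0.861 in VHL-deficient cells).

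The unequal change of heavy and light chains appears in their ratio. Slc3a2 per kb divided by the summed per-kb level of Slc7a5, Slc7a6, Slc7a7, Slc7a8, Slc7a10 and Slc7a11 was 6.32 to 8.00 in the 4 spleen libraries and 10.7 to 26.0 in the 18 tumor libraries, with no overlap. Of these tumor libraries, only the unsplit day 7 ones shared a plate column with spleen, and they had 10.7 to 20.8. Slc7a6 made up 66.5% to 94.5% of that light chain sum in each library. Slc7a5 made up 6.40% and 5.19% of it in WT spleen and 26.9% and 18.0% in WT unsplit tumor. In VHL-deficient cells it made up 3.80% and 1.72% in spleen and 17.5% and 20.4% in unsplit tumor. The ratio is a ratio of transcripts and describes no protein complex.

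Slc7a1, the arginine and lysine carrier, had 206 and 137 scaled counts in WT spleen and 534 and 435 in WT tumor. In VHL-deficient cells Slc7a1 had 145 and 148 in spleen and 546 and 360.0 in tumor. The groups did not overlap. The rise was 2.86-fold in WT (log2 fold change 1.51 ± 0.32, adjusted p = 0.00189) and 3.01-fold in VHL-deficient cells (1.59 ± 0.32, adjusted p = 0.00157). Without VHL-deficient unsplit tumor replicate 1 the latter gave 1.29 with adjusted p = 0.0531.

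Among the carriers of glutamine and small neutral amino acids, Slc1a5 did not pass the test. It had 1193 and 1352 scaled counts in WT spleen and 1877 and 1653 in WT tumor (log2 fold change 0.47, adjusted p = 0.196), and 1296 and 1303 against 2014 and 2150.0 in VHL-deficient cells (0.68, adjusted p = 0.0777). The sorted tumor libraries, from another plate column than spleen, did not lie above spleen. Their nonTrm values (1170.1 and 1041 in WT, 1280.0 and 704 in VHL-deficient cells) were below the spleen values of their genotype, and their Trm values overlapped them. Between the groups compared, unsplit tumor libraries were above spleen libraries in both genotypes. Leaving out VHL-deficient nonTrm replicate 1 or 2, which belong to neither group but share the estimate of the spread, brought the VHL-deficient value of Slc1a5 past the threshold (adjusted p = 0.0179 and 0.018), as did library weights (0.00975) and a fit of the groups compared alone (0.0135).

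Slc38a1 had 948 and 848 scaled counts in WT spleen and 1421 and 1269.9 in WT tumor (log2 fold change 0.58, adjusted p = 0.149). In VHL-deficient cells it rose from 427 and 489 in spleen to 1013 and 993 in tumor (1.13 ± 0.28, 2.19-fold, adjusted p = 0.00907). The groups did not overlap in either genotype. The VHL-deficient call for Slc38a1 was lost without VHL-deficient spleen replicate 1 (adjusted p = 0.0912) and without VHL-deficient unsplit tumor replicate 1 (0.0739) or 2 (0.0528). In WT cells Slc38a1 passed the threshold without VHL-deficient nonTrm replicate 1 (0.0406) or 2 (0.0404).

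Slc38a2 had 455 and 593 scaled counts in WT spleen, and the WT tumor libraries lay on both sides of these, at 1335 and 306 (log2 fold change 0.30, adjusted p = 0.706). Without the first of these the WT value of Slc38a2 was -0.76 (0.244), and without the second it was 1.36 (0.0604). In VHL-deficient cells Slc38a2 rose from 291 and 290.4 in spleen to 1081 and 788 in tumor (1.66 ± 0.49, 3.17-fold, adjusted p = 0.0245). That call was lost when any of the 4 libraries compared was left out (adjusted p from 0.0605 to 0.193, lowest without VHL-deficient unsplit tumor replicate 2 and highest without replicate 1) and without a variance trend (0.0624). The difference between genotypes in the tumor against spleen effect was 1.37 for Slc38a2 (95% CI -0.08 to 2.81, adjusted p = 0.528) and 0.55 for Slc38a1 (adjusted p = 0.635). For all 8 members this difference had an adjusted p of 0.528 or more, and 0.0698% of all tested genes were called in it.

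The plot of tumor against spleen effects shows both genotypes side by side. Averaged over both genotypes, a comparison added after the data were seen, 6 of 8 members were called higher against 31.1% of tested genes called and 18.3% called higher. These were Slc3a2 (1.46, adjusted p = 5.9e-06), Slc7a1 (1.55, 2.21e-05), Slc7a5 (2.51, 0.00011), Slc38a1 (0.86, 0.00263), Slc1a5 (0.58, 0.0193) and Slc38a2 (0.98, 0.036). The average call for Slc1a5 was lost without VHL-deficient spleen replicate 1 (0.0522), WT spleen replicate 1 (0.0678), VHL-deficient unsplit tumor replicate 2 (0.0593) or WT unsplit tumor replicate 1 (0.0579). The average call for Slc38a2 was lost under 6 single omissions, with the largest move without WT unsplit tumor replicate 1 (0.45, adjusted p = 0.262). The others were VHL-deficient spleen replicates 1 and 2, WT spleen replicates 1 and 2 and VHL-deficient unsplit tumor replicate 1 (0.0523 to 0.124). It was also lost with further TMM scaling (0.0525), with no filter beyond 1 read in 2 libraries (0.0594) and with no variance trend (0.0761).

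**Figure D2:**
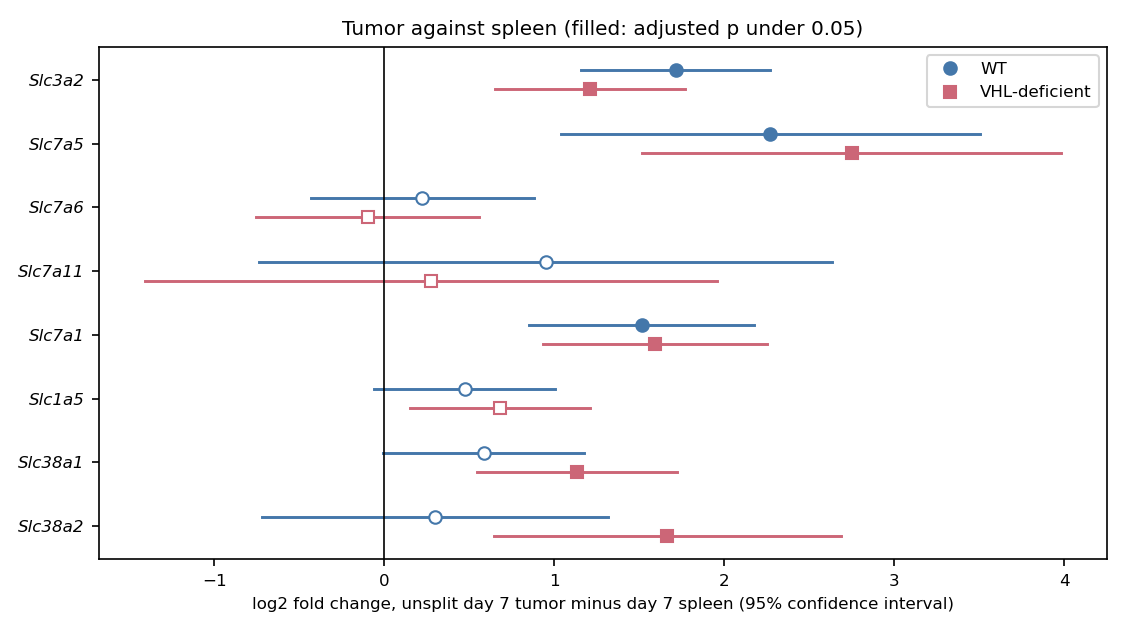
Log2 fold change of unsplit day 7 tumor minus day 7 spleen (horizontal axis) with its 95% confidence interval for each transporter, circles for WT and squares for VHL-deficient cells, filled where the adjusted p was under 0.05. Slc3a2, Slc7a5 and Slc7a1 are filled in both genotypes, and Slc38a1 (1.13) and Slc38a2 (1.66) are filled for VHL-deficient cells.

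Other measurements moved with the tissue. Of 15 proliferation genes, 15 rose in WT and 14 in VHL-deficient tumor cells, and their summed scaled count was 3079 to 3203 in WT spleen, 17874 to 24594 in WT tumor, 2228 to 2437 in VHL-deficient spleen and 12383 to 13395 in VHL-deficient tumor. Of 15 HIF target genes of glycolysis, 12 rose in WT and 7 in VHL-deficient tumor cells. The 5 B cell markers summed to 570.2 to 1222 in spleen and 195 to 1018 in tumor, and 10 macrophage and monocyte markers to 15.3 to 40.2 in spleen and 36.5 to 91.7 in tumor. The 7 dendritic cell markers summed to 702 to 1246 in spleen and 129 to 298 in tumor, with no overlap. The highest of these sums, 1246 in WT spleen replicate 2, was mostly Itgax (1202.8). Over the 22 libraries Flt3, Cd209a and Siglech had medians of 0. The 6 RNA quality genes summed to 48838 and 53252 in WT spleen and 62656 and 102576 in WT tumor, and to 41360 and 53718 in VHL-deficient spleen and 35674 and 36829 in VHL-deficient tumor. The part of these in the carrier values was not tested.

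The second comparison, VHL-deficient against WT cells, asks how loss of VHL changes the same transcripts in each of the 5 settings. No member was called in any of them. Background shares of called genes were 6.87% in day 11 tumor, 1.91% in unsplit day 7 tumor, 3.18% in day 7 spleen, 10.1% in Trm and 2.32% in nonTrm cells. Members with an unadjusted p under 0.05 numbered 2, 0, 1, 4 and 2 of 8 in the same order, where 22.1%, 13.6%, 13.3%, 25.9% and 15.3% of all tested genes had one. With voom, Slc38a1 in Trm cells was called (adjusted p = 0.0434) and no other member was called in any of the 5 settings. Fitted medians of the 8 members were between -0.60 (Trm) and -0.10 (spleen), beside 0.02 to 0.09 over all tested genes.

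Slc38a1 was lower in VHL-deficient cells in each setting, with no overlap between genotypes. In spleen it had 948 and 848 scaled counts in WT and 427 and 489 in VHL-deficient libraries. In unsplit day 7 tumor the WT libraries had 1421 and 1269.9 and the VHL-deficient ones 1013 and 993. In Trm cells the values were 1249 and 1396 against 757 and 701. All of these VHL-deficient values lie under those of their WT counterparts, and the gap was smallest in unsplit tumor cells. In nonTrm cells Slc38a1 had 1159 and 1071 in WT and 788 and 366 in VHL-deficient libraries, the lower value from replicate 2, the library that stands apart. In day 11 tumor it had 1156, 1121 and 1349 in WT and 658, 772 and 1008 in VHL-deficient libraries.

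Fitted log2 fold changes for Slc38a1 were -0.97 in spleen (adjusted p = 0.0688), -0.42 in unsplit tumor (0.526), -0.86 in Trm (0.0578), -1.05 in nonTrm (0.0538) and -0.59 in day 11 tumor cells (0.138), none past the threshold. In nonTrm cells Slc38a1 passed under 5 of 11 other settings. These were further TMM scaling (0.0449), a filter of 30 (0.0467), a pseudocount of 5 (0.0484), recomputed size factors (0.0494) and the replicate block (0.0132). It passed in Trm cells with a filter of 30 (0.0482) and voom (0.0434), and with library weights in spleen (0.0192) and day 11 tumor (0.0123). In day 11 tumor it also passed with the groups compared alone (0.0264). The highest adjusted p among the other settings was 0.934 in nonTrm, 0.193 in Trm, 0.139 in spleen and 0.285 in day 11 tumor cells. In unsplit tumor no other setting brought Slc38a1 past the threshold. Without VHL-deficient nonTrm replicate 2 the nonTrm value was -0.50. Without replicate 1, which leaves replicate 2 alone in its group, it was -1.60 (adjusted p = 0.000278). Leaving out either of these libraries also brought Slc38a1 past the threshold in spleen (0.00686 and 0.00691), Trm (0.00772 and 0.00781) and day 11 tumor (0.0286 in both), through the shared estimate of the spread. Of all tested genes, 204 (1.42%) were lower with no overlap in all 5 settings, and 11.8% had a lower mean in all 5. Slc38a1 was singled out after its values were seen.

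The average of the 5 genotype effects, added after the lower values of Slc38a1 were seen, was -0.78 ± 0.12 for Slc38a1 (0.58-fold, adjusted p = 7.29e-05), and Slc38a1 stayed called under each of 11 other settings and with each of the 22 libraries left out (adjusted p from 4.18e-07 to 0.0007). Slc3a2 had -0.43 ± 0.12 (adjusted p = 0.0087) and Slc7a1 -0.40 ± 0.14 (adjusted p = 0.0366). These 3 of 8 members were called lower where 27.2% of tested genes were called and 11.8% called lower. Slc3a2 also stayed called under each of these changes (adjusted p from 0.00123 to 0.0282). The call for Slc7a1 was lost with library weights (0.0516), with no variance trend (0.0641), with no filter beyond 1 read in 2 libraries (0.0825) and when any 1 of 11 libraries was left out (0.0568 to 0.0966). Those libraries were VHL-deficient day 11 replicate 1, WT day 11 replicate 3, VHL-deficient spleen replicates 1 and 2, WT spleen replicate 1, VHL-deficient Trm replicate 2, WT Trm replicate 2, VHL-deficient unsplit tumor replicate 2, WT unsplit tumor replicate 1, VHL-deficient nonTrm replicate 2 and WT nonTrm replicate 1.

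The heavy chain Slc3a2 had a lower mean in VHL-deficient cells in the 4 tumor settings and a slightly higher one in spleen. In nonTrm cells it had 4828 and 4932 scaled counts in WT and 3000.3 and 2185 in VHL-deficient libraries, the widest gap (log2 fold change -0.93 ± 0.27, adjusted p = 0.0729). In Trm cells it had 4521 and 3351 against 2989 and 2232 (-0.59, adjusted p = 0.167). In both sorted subsets and in unsplit tumor (-0.40, adjusted p = 0.528) every WT library was above every VHL-deficient one. Spleen separated the other way, with 1099.6 and 1087 in VHL-deficient and 1060.4 and 971 in WT libraries (0.11, adjusted p = 0.928). In day 11 tumor Slc3a2 had 2443, 3399.9 and 3762 in WT and 2104, 2798 and 2624 in VHL-deficient libraries, which overlapped (-0.34, adjusted p = 0.384). Further scaling by TMM (adjusted p = 0.0478) and the replicate block (0.0369) brought Slc3a2 in nonTrm cells past the threshold, and the highest value among the other settings was 0.947. Without VHL-deficient nonTrm replicate 1 its log2 fold change was -1.16, and without replicate 2 it was -0.70.

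Slc7a1 was most apart in Trm cells, with 418 and 500.4 scaled counts in WT and 268 and 262 in VHL-deficient libraries (log2 fold change -0.78 ± 0.32, adjusted p = 0.12). It passed there without VHL-deficient nonTrm replicate 1 or 2 (0.0461 in both). In nonTrm cells the Slc7a1 libraries overlapped, at 397 and 341 in WT and 346 and 172 in VHL-deficient cells (-0.59, adjusted p = 0.392). Without replicate 1 of the latter group the value was -1.09 (0.0278) and without replicate 2 it was -0.09 (0.915), so the nonTrm value of Slc7a1 rests on the library that stands apart. In the other 3 settings the fitted values lay between -0.29 and -0.12.

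Slc38a2, the second SNAT gene and the neighbour of Slc38a1, did not follow it. In day 11 tumor it had 456, 605 and 446 scaled counts in WT and 789.6, 918 and 1015 in VHL-deficient libraries. Each VHL-deficient library was above each WT library, while for Slc38a1 the order was the other way round. The fitted change of Slc38a2 was 0.86 ± 0.40 (adjusted p = 0.212, 95% CI 0.03 to 1.69), and it passed the threshold in a fit of the groups compared alone (0.00348) and with library weights (0.036). In nonTrm cells it had 601 and 509 against 1144 and 824 (0.81, adjusted p = 0.457), again with no overlap. In spleen the order turned, with 455 and 593 in WT and 291 and 290.4 in VHL-deficient libraries (-0.84, adjusted p = 0.523). Unsplit tumor and Trm cells overlapped. Averaged over the 5 settings, Slc38a2 had 0.34 (adjusted p = 0.252), and without WT unsplit tumor replicate 1, the library at 1335, it had 0.55 (adjusted p = 0.0186).

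Within a library, the scaled count of Slc38a2 divided by that of Slc38a1 shows the pair on 1 scale. In day 11 tumor the ratio was 0.394, 0.540 and 0.331 in WT and 1.20, 1.19 and 1.01 in VHL-deficient cells. In nonTrm cells it was 0.519 and 0.476 against 1.45 and 2.25, and in Trm cells 0.344 and 0.482 against 0.523 and 1.63. Every VHL-deficient library was above every WT library in these 3 settings. In unsplit day 7 tumor the ratios were 0.939 and 0.241 in WT and 1.07 and 0.794 in VHL-deficient cells, which overlapped, as did those in spleen (0.480 and 0.700 against 0.681 and 0.594). The ratio was chosen after the values of both genes were seen and has no test. The plot of both ratios by library shows it beside the heavy to light chain ratio.

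**Figure D3:**
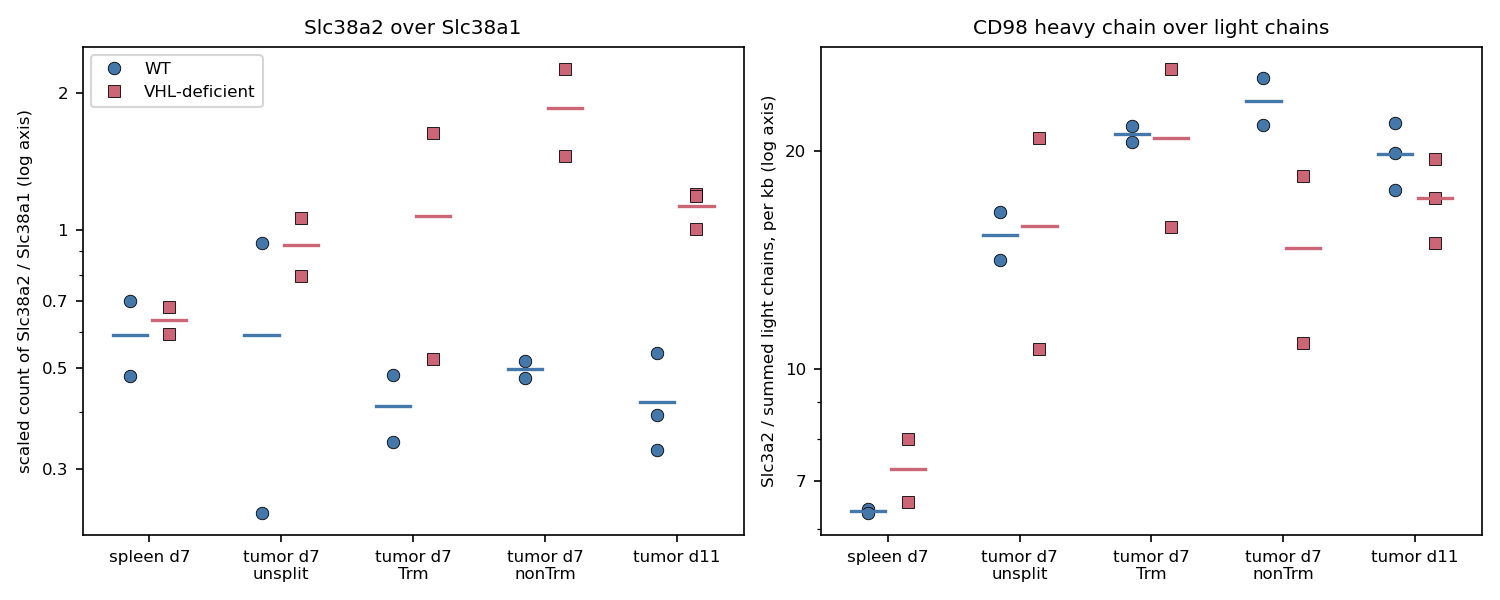
Left, the Slc38a2 to Slc38a1 ratio of scaled counts, and right, Slc3a2 per kb divided by the summed light chains per kb, for every library by setting on log axes, as circles for WT and squares for VHL-deficient cells, with group means as lines. The left panel separates the genotypes in Trm, nonTrm and day 11 cells, and the 4 spleen libraries in the right panel (6.32 to 8.00) lie below every tumor library. Sorted and day 11 libraries lay in other plate columns than spleen.

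The other members differed by less or in mixed directions. Slc1a5 had 1555, 1616 and 1749 scaled counts in WT and 1882, 1938 and 2051 in VHL-deficient day 11 tumor cells, with no overlap (log2 fold change 0.26, adjusted p = 0.502, 95% CI -0.18 to 0.69). Over the 5 settings its fitted values lay between -0.22 and 0.26, and the lowest, in nonTrm cells, was 0.21 without VHL-deficient nonTrm replicate 2. Slc7a6 lay between -0.51 and 0.00, and Slc7a5 between -1.05 and 0.59. In spleen, where Slc7a5 rested on 6 VHL-deficient and 16 WT reads in all, the ratio of VHL-deficient to WT was 0.377 (exact 95% counting interval 0.121 to 1.01). The cystine carrier Slc7a11 had 9.46 and 21.2 scaled counts in WT Trm and 3.14 and 1.55 in VHL-deficient Trm libraries (36 and 5 reads in all), a ratio of 0.131 (0.040 to 0.334, counting error only) with a fitted change of -2.23 ± 0.81 (adjusted p = 0.0823).

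Members whose genotypes did not overlap numbered 3 in day 11 tumor (38.5% of all tested genes did not overlap), 3 in unsplit tumor (49.1%), 4 in spleen (43.6%), 5 in Trm (53.5%) and 5 in nonTrm cells (34%). The 5 members in nonTrm cells, 62.5% of the 8, lay in both directions, with Slc38a2 and Slc7a11 higher and Slc38a1, Slc3a2 and Slc7a5 lower in VHL-deficient cells. The plot of genotype effects shows the 5 settings for each gene.

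**Figure D4:**
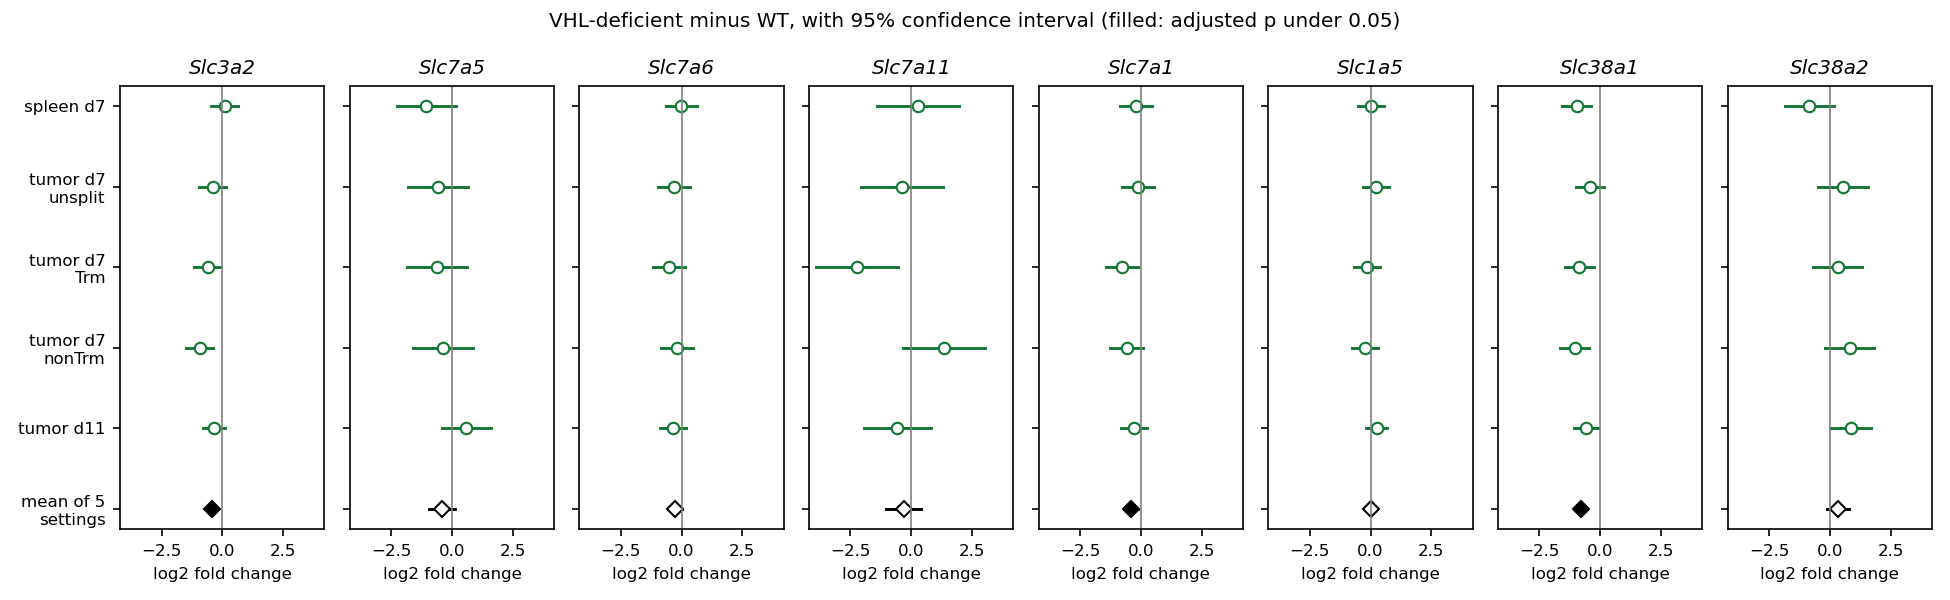
Log2 fold change of VHL-deficient minus WT (horizontal axis) with its 95% confidence interval in each of the 5 settings and as their mean, for each transporter, filled where the adjusted p was under 0.05. All 5 Slc38a1 settings lie left of 0 (-1.05 to -0.42) and none is filled, whereas the mean is filled for Slc38a1 (-0.78), Slc3a2 (-0.43) and Slc7a1 (-0.40).

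Other measurements moved with the genotype. Of 15 HIF target genes of glycolysis, 13 rose in day 11 tumor, 9 in unsplit tumor, 12 in spleen, 10 in Trm and 10 in nonTrm cells. Of 15 proliferation genes, 11 fell in day 11 tumor, 12 in Trm, 1 in nonTrm and 0 in spleen and unsplit tumor cells, and all 15 fell in the average of the 5 settings (median -1.33). Of 6 genes read as RNA quality signs (4 mitochondrial transcripts, Malat1 and Neat1), 4 fell in day 11 tumor, 4 in Trm, 1 in unsplit tumor, 1 in nonTrm and 0 in spleen cells. Their summed scaled count was 68926 to 96120.2 in WT and 30398 to 34738 in VHL-deficient day 11 libraries, 62656 and 102576 against 35674 and 36829 in unsplit tumor, 144160.0 and 110033 against 54642 and 43368 in Trm, and 91032 and 107333 against 37411 and 80332 in nonTrm cells. In spleen it was 53252 and 48838 in WT and 53718 and 41360 in VHL-deficient libraries, so the genotypes overlapped there and in no tumor setting. The B cell sum was lower in VHL-deficient than in WT libraries in all 5 settings, for example 311 to 591 against 76.1 to 135 in day 11 tumor. The part of these measurements in the carrier values was not tested.

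The third comparison set Trm against nonTrm cells, the 2 sorted parts of the day 7 tumor. No member was called in either genotype, where 43 genes (0.3%) were called in WT and 1 gene (0.00698%) in VHL-deficient cells. By unadjusted p under 0.05 there was 1 member in WT and 0 in VHL-deficient cells (11.4% and 8.77% of all tested genes), and voom called 0 members in both. Members whose subsets did not overlap numbered 6 in WT (39.7% of all tested genes) and 3 in VHL-deficient cells (24.6%).

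The member with the unadjusted p was Slc7a11, at 9.46 and 21.2 scaled counts in WT Trm and 2.26 and 3.58 in WT nonTrm libraries (36 and 6 reads in all). In VHL-deficient cells it had 3.14 and 1.55 in Trm and 5.47 and 13.6 in nonTrm libraries (5 and 13 reads). The subsets did not overlap in either genotype, and their order was opposite. From summed reads the ratio of Trm to nonTrm was 6.17 in WT (exact 95% counting interval 2.57 to 17.9) and 0.314 in VHL-deficient cells (0.0875 to 0.937). The fitted changes of Slc7a11 were 1.98 (adjusted p = 0.337) and -1.58 (0.585), and their difference was -3.56 (95% CI -5.94 to -1.18, unadjusted p = 0.00533, adjusted p = 0.527 by limma). No gene was called in that difference, and 1156 genes had an unadjusted p under 0.05. Of the 22 omissions, the one of VHL-deficient nonTrm replicate 1, which leaves the library that stands apart alone in its group, brought the difference for Slc7a11 past the threshold (-4.15, adjusted p = 0.0414). Without replicate 2 it was -2.97 (adjusted p = 0.93).

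Slc7a5 had 23.0 and 30.7 scaled counts in WT Trm and 42.1 and 42.9 in WT nonTrm libraries. In VHL-deficient cells Slc7a5 had 10.5 and 27.2 against 29.4 and 35.5. The Trm libraries were lower in both genotypes with no overlap, and neither value passed (log2 fold changes -0.66 and -0.89, adjusted p = 0.743 and 0.663). Slc1a5 had 1212 and 1776 in WT Trm and 1170.1 and 1041 in WT nonTrm libraries (0.41, adjusted p = 0.596). In VHL-deficient cells it had 1364 and 1269 against 1280.0 and 704, where the low value is from replicate 2 (0.47, adjusted p = 0.605). Without VHL-deficient nonTrm replicate 1, so with replicate 2 alone, Slc1a5 (0.90, adjusted p = 0.0158) and Slc38a1 (0.99, adjusted p = 0.0126) were called higher in VHL-deficient Trm cells. Without replicate 2, the library that stands apart, Slc1a5 had 0.04 and Slc38a1 -0.11 (adjusted p = 1 for both), so these calls rest on that library. Averaged over both genotypes no member was called (0.293% of tested genes were), and with replicate 1 left out Slc1a5 had 0.66 (0.0118) and Slc38a1 0.62 (0.0215), against 0.23 (0.627) and 0.07 (0.921) with replicate 2 left out. Beside these values, 4 of 15 proliferation genes rose in WT Trm cells, with sums of 22267 and 25576 in Trm and 10113 and 4285 in nonTrm libraries.

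Day 11 against unsplit day 7 tumor cells gave no called gene in either genotype (0% of all tested genes by limma, with 484 and 633 genes at an unadjusted p under 0.05), and voom called 0 members in both. All 8 members had an adjusted p of 1, and no member's days separated without overlap, where 17.5% of tested genes in WT and 30.1% in VHL-deficient cells did. Slc7a5 in WT had 60.0 and 42.3 scaled counts on day 7 and 14.6, 17.4 and 43.2 on day 11 (log2 fold change -1.14, unadjusted p = 0.0474). Its VHL-deficient value was 0.02. The other fitted member values lay between -0.38 and -0.02. Day and plate column cannot be told apart here.

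The level order over the 10 groups differed between members. Sorted cells, unsplit day 7 cells with spleen, and day 11 cells lay in different plate columns. The order therefore cannot tell plate column apart from sorting or day. Slc3a2 was highest in WT nonTrm cells (4879.7 ± 73.2 scaled counts, SD, n = 2) and lowest in WT spleen (1016 ± 63.0, n = 2), a 4.80-fold range. Of its 9 neighbouring pairs of group means, 3 did not overlap, those below WT nonTrm, below VHL-deficient day 11 and between both spleen groups. Slc38a1 was highest in WT unsplit tumor (1345 ± 107) and lowest in VHL-deficient spleen (458 ± 43.9), with the 4 WT tumor groups in the first 4 places. For Slc7a6 no neighbouring pair separated and the whole range was 1.56-fold, the narrowest of the 8. For Slc7a5 the range was 11.2-fold, from 51.2 ± 12.5 in WT unsplit tumor to 4.58 ± 3.00 in VHL-deficient spleen. Slc1a5 was highest in VHL-deficient unsplit tumor (2082 ± 96.1) and lowest in VHL-deficient nonTrm cells (992 ± 407). That lowest place rests on replicate 2 (704), since replicate 1 had 1280.0 and the WT nonTrm mean was 1106.

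Other genes of amino acid transport were read from lists chosen with earlier results known. Of 35 further plasma membrane carriers, 10 passed the filter. In WT tumor against spleen, 3 rose and 1 fell, and the median of the 10 was -0.23 against 0.08 over all tested genes. Slc1a4 (ASCT1, a neutral amino acid exchanger) went from a mean of 0 to 14.4 scaled counts, Slc36a4 from 7.51 to 51.4 and Slc6a19, a neutral amino acid carrier best known from gut and kidney, fell from 32.4 to 2.35. In VHL-deficient tumor against spleen, 3 rose and 0 fell, and the median was 0.41 against 0.06. These were Slc1a4 (1.23 to 20.2), the cationic amino acid carrier Slc7a3 (0 to 11.3) and the aromatic amino acid carrier Slc16a10 (18.4 to 79.4).

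Between genotypes, the branched-chain and large neutral amino acid carrier Slc43a2 (LAT4) rose in VHL-deficient day 11 tumor (67.6 to 132 scaled counts, log2 fold change 0.96, adjusted p = 0.0494) and Trm cells (75.4 to 174, 1.23, adjusted p = 0.0327). Slc7a3 fell in Trm cells, from a mean of 9.06 to 0. No other listed plasma membrane carrier passed in any of the 5 settings. Of 18 lysosomal and mitochondrial carriers, 16 were tested, with medians between genotypes near 0 (-0.04 in day 11 tumor and 0.05 in Trm cells). Sfxn1, a mitochondrial serine carrier, fell in Trm cells from 496 to 185 (adjusted p = 0.0084). In day 11 tumor Sfxn3 rose from 127 to 235 (adjusted p = 0.0177) and Slc25a29 fell to a mean of 3.32 (log2 fold change -2.87, adjusted p = 0.00779). In tumor against spleen, the lysosomal arginine sensor Slc38a9 fell in WT (206 to 106) and in VHL-deficient cells (213 to 107).

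Of 15 factors known to act on these genes or on amino acid sensing, 13 were tested. In tumor against spleen, 2 rose and 2 fell in WT and 3 rose and 1 fell in VHL-deficient cells. The stress factor Atf4 rose from 444 to 1686 scaled counts in WT (log2 fold change 1.93, adjusted p = 8.32e-05) and from 687 to 1436 in VHL-deficient cells (1.06, adjusted p = 0.0168). Hif1a rose in both (2.60 and 2.48), and Rptor, a subunit of mTORC1, fell in both (-1.76 and -1.10). Between genotypes, Myc fell in VHL-deficient Trm cells from 382 to 158 (adjusted p = 0.0199), Sesn2 fell in nonTrm cells from 134 to 45.4 (0.0463), and Rptor rose in day 11 tumor (0.93) and Trm cells (1.35). In the average of the 5 settings Rptor rose by 0.78, and Hif1a (-0.73) and Nfe2l2, which encodes NRF2 (-0.67), fell.

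The genes whose mean log2 level was most like a member's over the 10 group means are a description, with points that share libraries, depth and tissue. For Slc3a2 they were Irf1, an interferon response factor (Pearson r = 0.99), Hif1a (0.97) and the stress sensor Ern1 (0.97). For Slc38a1 they were St6galnac4 (0.97), Cs, the citrate synthase gene (0.97), and Cnot10 (0.97). Slc7a1 was nearest to Cnih2 (0.99), the glycine decarboxylase gene Gldc (0.98) and Cd200 (0.98). Slc1a5 was nearest to the phosphatase gene Ptpn6 (0.96), Slc38a2 to Phf6 (0.94), Slc7a6 to Mrps23 (0.93) and Slc7a11 to Nsmce4a (0.93). Among the members, Slc3a2 followed Slc7a1 and Slc7a5 (0.84 with each), Slc38a1 followed Slc7a1 (0.80), and the neighbours Slc38a1 and Slc38a2 had 0.11.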

How the data were processed

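RNA from sorted cells lysed in TCL buffer was measured in 22 libraries. Per the submitters' processing notes, STAR, featureCounts, DESeq and the mm10 build were used, with versions not given in the sources used here. The deposited signal values were found to equal a read count divided by the library's size factor, plus 1. That offset was removed, and dividing by each library's smallest step gave whole reads (100% within 0.01 reads). The header states 55 samples, but the table holds 22 columns of values, and all 22 were used.

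The 14327 genes that reached a scaled count of 10 in 2 or more libraries were fitted with limma 3.58.1 (R 4.3.3) on log2(scaled count + 1), with 10 group means, 12 residual degrees of freedom and eBayes with a trend. Tests were two-sided with Benjamini-Hochberg adjustment over all tested genes, at a threshold of 0.05, and every adjusted p in the text is from this fit unless another is named. Fold changes are on the log2(scaled count + 1) scale and understate those of low genes. There were 14 planned comparisons, and 3 averages were added after the data were seen. Counting intervals were computed with scipy 1.17.1.

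The members, the gene lists and the tests were chosen with earlier results of these data known. The rule for named genes took the 8 members, Vhl, the 3 tested genes most like each member, and up to 3 called genes of each list per comparison with the smallest adjusted p; some of these are not reported here. Libraries were labelled biological replicates of 5 pooled mice. On simulated data, a comparison of 2 against 2 with shallow libraries (WT tumor against spleen) made more false calls than the threshold allows. The limit set for that check was loosened after this was seen. Alternatives were further TMM scaling, other filters and pseudocounts, no trend, library weights, a replicate block, groups alone and each library left out. After seeing the data, voom on the recovered reads and recomputed size factors were added. Sequences are RefSeq's. No GC correction was made, and gene length entered only the per-kb values and the ratios built on them.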

Additional observations from a re-analysis of the deposited data

How the results depend on the processing

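Each member's value was recomputed under 11 other settings (10 for Slc7a11, which does not pass a filter of 30) and with each of 22 libraries left out, and no called value changed its direction. The number of members called between genotypes in day 11 tumor went from 0 to 2 with library weights and 2 with the groups compared alone (0 to 1 with a library left out). In spleen it went to 1 with library weights (0 to 1 with a library left out). In Trm cells it went to 1 with a filter of 30 and 1 with voom (0 to 2 with a library left out). In nonTrm cells it went to 2 with further TMM scaling, 2 with the replicate block (Slc38a1, adjusted p = 0.0132, and Slc3a2, 0.0369), and 1 each with a filter of 30, a pseudocount of 5 and recomputed size factors (0 to 3 with a library left out). With a library left out, the members called numbered 2 to 4 in WT tumor against spleen, 1 to 6 in VHL-deficient tumor against spleen (4 to 6 under the other settings), 0 to 2 in Trm against nonTrm of VHL-deficient cells and of both genotypes averaged, and 0 to 1 in the difference between genotypes of the subset effect. The replicate block left 3 and 5 members called in tumor against spleen and 3 in the genotype average. Between genotypes, same-numbered libraries had correlations of their deviations of 0.0427, 0.105 and 0.104 in day 11 tumor, 0.0291 in unsplit tumor, 0.118 in spleen, 0.236 in Trm and 0.271 in nonTrm cells, where the block moved the calls. Each day 11 library correlated best with its own number, a hint from the data. Between Trm and nonTrm cells the correlations were -0.148 and -0.181, and between tumor and spleen -0.0953 and -0.0109. The labels do not say that a number marks shared animals or a shared day, so whether same-numbered samples share more than a number is not known. Further TMM scaling moved the median of all genes in the subset difference by 0.115.

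Groups of 2 leave wide intervals, Slc7a5 and Slc7a11 rest on few reads, and the noisy VHL-deficient nonTrm pair (replicate 2 stands apart) enters the spread of every comparison. Among all genes, 332 were called between genotypes in nonTrm cells, against 0 with the groups alone, 55 with library weights and 675 with the replicate block.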
